A study of Mus musculus with 399 samples.

Results

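The comparison concerned the liver of C57BL/6J (B6) females that had eaten a high-fat diet (HF in the labels) for 16 weeks and were 20 weeks old, set against B6 females of the same age kept on standard chow. Its members were the liver libraries that the labels give this sex, strain, age and diet, 6 on the high-fat diet and 6 on chow, which is 12 of the 399 libraries in the study. The study sequenced poly(A) RNA of liver, gonadal fat, soleus muscle and pancreas from males and females of B6 and of TALLYHO/Jng (TH), an inbred strain known for obesity and type 2 diabetes of polygenic origin, at 5 and at 20 weeks of age. Pups were weaned onto their diet at 4 weeks, so that both groups had eaten only that diet since weaning. Each library was labelled with the number of its own mouse, and the composition of the diets is not given in the sources used here. Another 36 liver libraries, 6 a group, served to show where the female B6 response differed: B6 males on both diets at 20 weeks, TH females on both diets at 20 weeks, and B6 females on both diets at 5 weeks, after 1 week of feeding. Livers of TH males on chow at 20 weeks were set against those of TH females on chow, only to find sex-biased genes.

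The liver takes up dietary fat, makes fatty acids and cholesterol of its own, burns fatty acids in mitochondria and peroxisomes and exports lipid on lipoproteins. These tasks are set by transcription factors that sense lipids, among them the sterol-regulated SREBPs and the fatty acid sensor PPARα, while the xenobiotic receptors CAR and PXR set the detoxifying enzymes. The mouse liver also differs strongly between the sexes, because the pulsed male and the steadier female pattern of growth hormone secretion keep separate sets of cytochromes and carriers active.

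The 12 libraries held between 11168764 and 15282787 counted reads. The label of tissue was borne out by the hepatocyte markers (Alb, Ttr, Apoa1, Serpina1c, Tat and Cps1), whose summed level lay between 26997 and 33775 CPM, the reads of a gene scaled to the size of its library, in every library. The X-inactivation transcript Xist was high and the Y-linked genes were at or below 0.195 CPM in each of the 12, as their female label implies. Single libraries stood apart in transcripts of other origin. Chow libraries 3 and 4 carried skeletal muscle transcripts at a summed 669 and 561 CPM, chow library 2 at 60.2 CPM and the other 9 at or below 15.2 CPM. The clock-controlled gene Dbp was at 162 and 159 CPM in chow libraries 1 and 2 and at or below 9.71 CPM in the other 10. High-fat library 3 had the highest sums of monocyte and of T cell markers, 39.1 and 15.5 CPM, and high-fat library 6 carried pancreatic acinar transcripts at 206 CPM against at most 25.8 CPM elsewhere. Counts that depend on these libraries are given below with and without them.

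**Figure D1:**
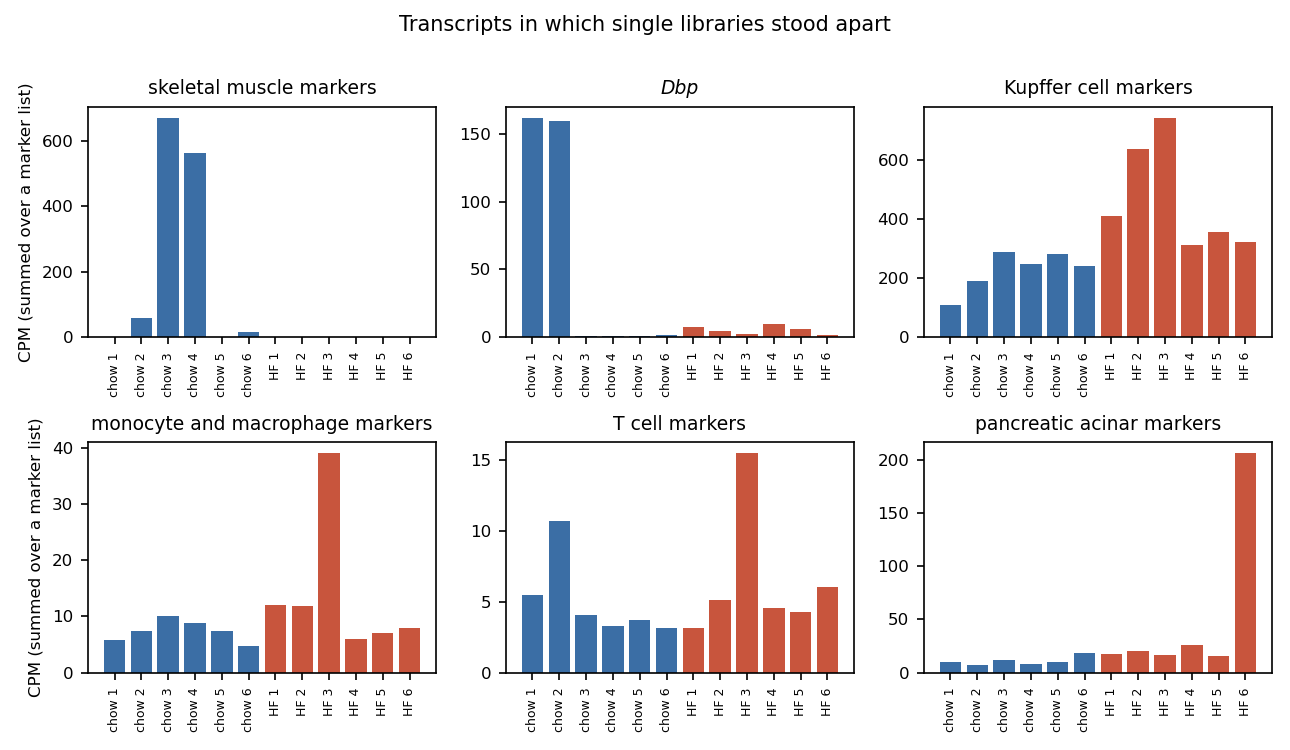
Bars give, for each of the 12 libraries (6 chow in blue, 6 high-fat in red), the summed CPM of a marker list, or in the Dbp panel the CPM of that single gene, each on its own axis from 0. Muscle transcripts stand out in chow 3 and 4 (669 and 561 CPM), Dbp in chow 1 and 2, immune markers in high-fat 3 and acinar markers in high-fat 6 (206 CPM), whereas the Kupffer cell sum was above 313 CPM in each high-fat library and below 288 CPM in each chow library.

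Long high-fat feeding changed 884 of 15922 tested genes in the female B6 liver, 422 upwards and 462 downwards, at an adjusted p under 0.05 in edgeR's quasi-likelihood test with the Benjamini-Hochberg adjustment. That is 5.55% of the genes tested, 2.65% for rises and 2.9% for falls, and the median log2 fold change of all tested genes was -0.01. Every count of list members below is to be read against these shares. At least a 2-fold change was reached by 24.6% of the genes that rose and 32.5% of those that fell. Every high-fat library lay above every chow library for 296 genes (1.86%) and below every chow library for 376 genes (2.36%). The falls were spread over detoxifying cytochromes, glutathione transferases, fatty acid oxidation and metallothioneins, and the rises over chaperones of the endoplasmic reticulum, interferon targets and macrophage genes. The count depended on the libraries included: it was 743 without chow libraries 1 and 2, 504 without chow libraries 3 and 4, and 298 without high-fat libraries 3 and 6, of which 495, 432 and 276 genes were also called with all 12. Leaving out 1 library at a time gave 511 genes without high-fat 2, 534 without chow 6, 536 without chow 2, 587 without high-fat 1 and up to 1232 without chow 5; no gene called both ways turned its sign.

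**Figure D2:**
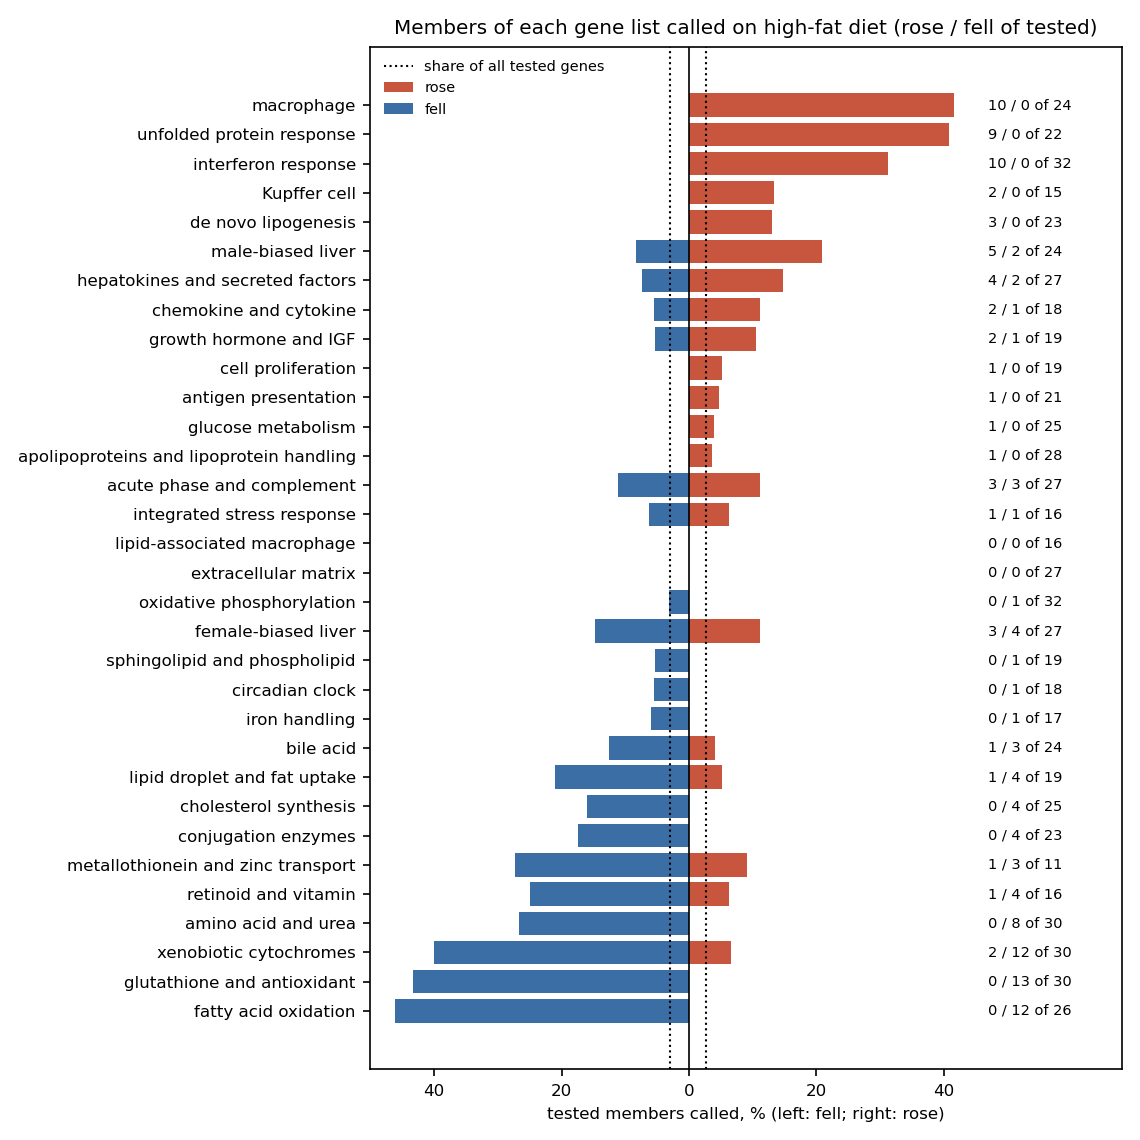
Bars give the percentage of each list's tested members that were called in female B6 liver at 20 weeks, rises to the right and falls to the left; dotted lines mark the shares of all tested genes, 2.65% for rises and 2.9% for falls. Glutathione enzymes (13 of 30 fell), fatty acid oxidation (12 of 26 fell), the unfolded protein response (9 of 22 rose) and macrophage genes (10 of 24 rose) reach far past the dotted lines, and the extracellular matrix list has no bar (0 of 27).

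Among genes of lipid synthesis and export, a small set rose steeply while most of the pathway stayed short of the threshold. Levels of a group are given here as the lowest, the median and the highest of its 6 libraries, and a change as the log2 fold change of high-fat over chow with its standard error. Pnpla5, a patatin-like lipase found on lipid droplets, had no read in any chow library and stood at 1.49, 2.85 and 11.2 CPM on the high-fat diet (adjusted p = 0.0044). The high-fat mean of Pnpla5, which library 1 raised, was at least 96.2-fold above chow set at a floor of 3 counts over the whole group. Pnpla3, a close relative of Pnpla5 and a target of the lipogenic factors SREBP-1c and ChREBP, was at 0.446, 1.81 and 2.64 CPM on chow and 13.2, 22.1 and 140.2 CPM on the high-fat diet (log2 change 4.66 ± 0.66, adjusted p = 0.00101). For both lipases the lowest high-fat library exceeded the highest chow library, and high-fat library 1 stood far above the other 5; without it the change of Pnpla3 was 3.73, still called, and the fitted value of Pnpla5 went from 8.68 to 8.06. Of 23 tested genes of de novo lipogenesis 3 rose, against 2.65% of all genes, and none fell, with a median of 0.45. Besides Pnpla3 these were the elongase Elovl5 and the desaturase Fads2, both needed for polyunsaturated fatty acids. Elovl5 was at 382, 585 and 689 CPM on chow and 874, 936 and 1016 CPM on the high-fat diet (0.75 ± 0.13, adjusted p = 0.00403), and Fads2 at 470.4, 535 and 679 against 737, 841 and 1093 CPM (0.66 ± 0.12, adjusted p = 0.00554). In neither gene did the groups overlap. Fatty acid synthase itself, Fasn, was at 844, 1030.2 and 1519.8 CPM on chow and 1175, 1485 and 4724 CPM on the high-fat diet, a difference of 0.90 ± 0.31 that did not pass (adjusted p = 0.1). The elongase Elovl6 differed by 1.02 ± 0.40 (adjusted p = 0.138), and in both genes the highest value by far was that of high-fat library 1. Pklr, the liver pyruvate kinase that feeds carbon from sugar into this pathway, was at 155, 187 and 210.2 CPM on chow and 210.1, 432 and 927 CPM on the high-fat diet and rose by 1.37 ± 0.25 (adjusted p = 0.00724); only high-fat library 3 fell within the range of chow. It was the single call among 25 genes of glucose metabolism, where 2.65% of all genes rose, with 2 rises without high-fat 3 and 3 without chow 1 and 2.

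A pair of transcripts typical of the intestine rose in every high-fat library. Apoa4, an apolipoprotein of chylomicrons that fatty livers also secrete, was at 49.2, 63.5 and 87.9 CPM on chow and 250.5, 337 and 410.1 CPM on the high-fat diet (2.36 ± 0.15, adjusted p = 2.3e-06). It was the only call among 28 tested apolipoproteins and lipoprotein genes, where 2.65% of all genes rose. Fabp2, the intestinal fatty acid binding protein, was at 25.3, 34.6 and 43.1 CPM against 55.95, 67.4 and 78.2 CPM (0.96 ± 0.12, adjusted p = 0.000406). The groups did not overlap in either gene, as the plot of 16 genes by library shows.

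**Figure D3:**
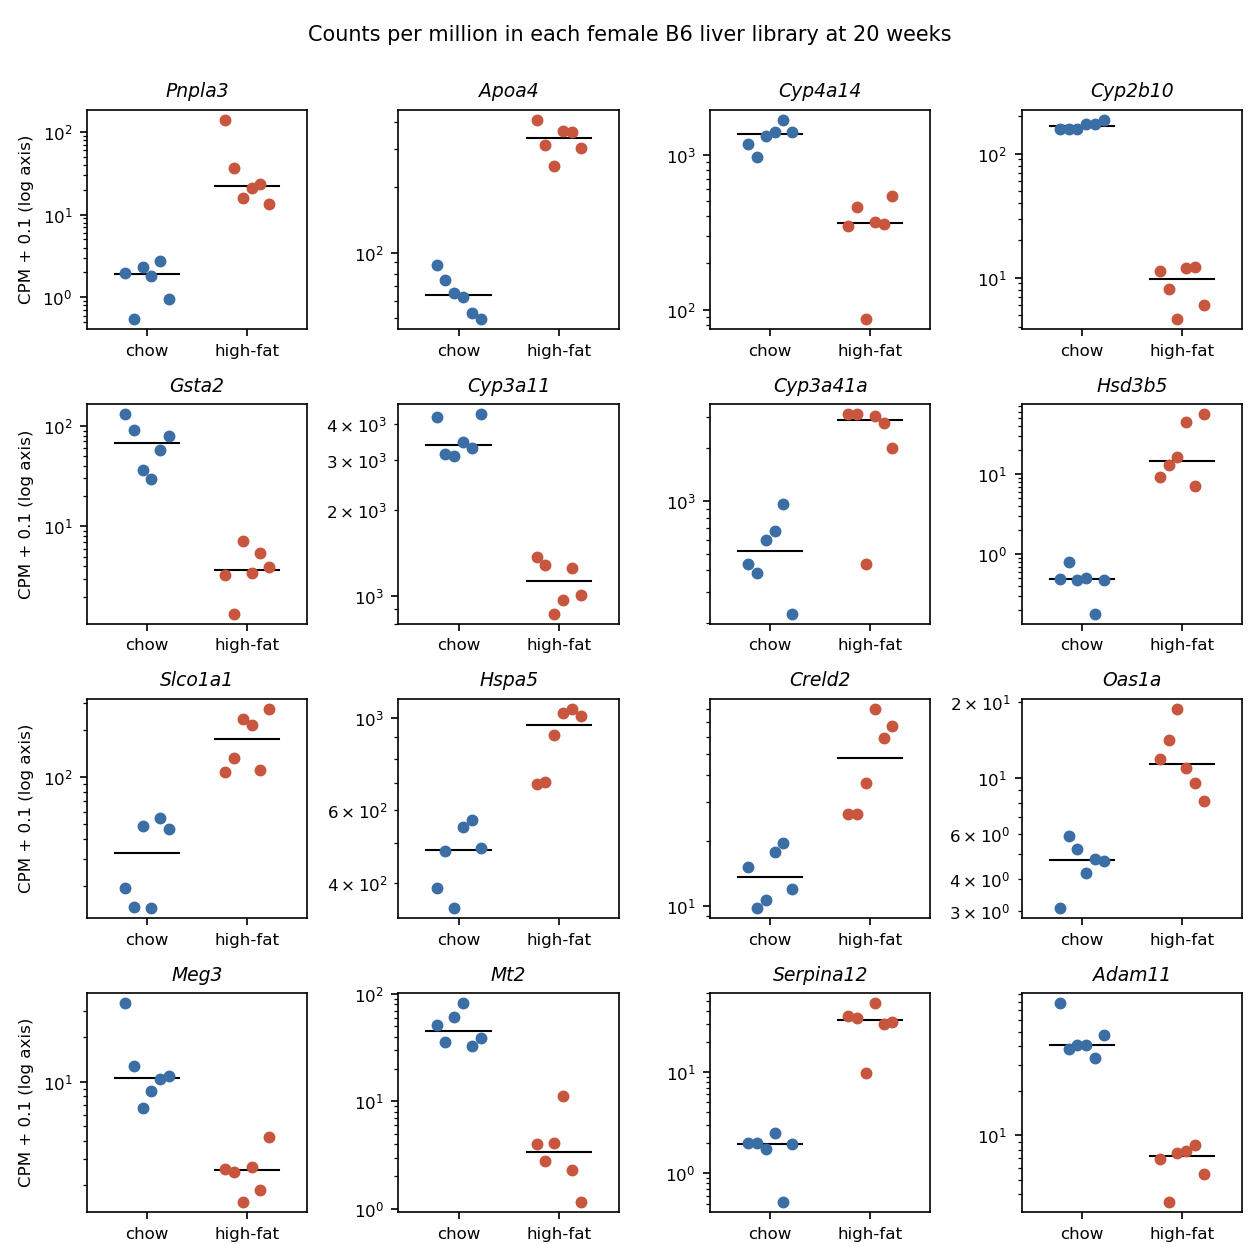
Each panel plots 1 gene in the 12 female B6 liver libraries at 20 weeks, as CPM plus 0.1 on a log axis; dots are libraries 1 to 6 from left to right within chow and high-fat, and the line is the group median. In most panels the groups are fully apart, and for Cyp3a41a high-fat library 3 lies among the chow libraries.

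Many genes that take up, store, release and burn fatty acids fell. Of 26 tested genes of fatty acid oxidation 12 fell and none rose, against 2.9% of all genes, and 23 of the 26 had values below 0, with a median of -0.37. The largest falls were in genes of peroxisomal and microsomal oxidation, which are classic targets of PPARα. Cyp4a14, a fatty acid omega-hydroxylase, was at 957, 1353 and 1676 CPM on chow and 87.4, 362 and 543 CPM on the high-fat diet (-1.87 ± 0.31, adjusted p = 0.00338). Its paralogue Cyp4a10 was at 697, 925 and 1173 CPM against 185, 406 and 521 CPM (-1.36 ± 0.23, adjusted p = 0.00365). For both genes every high-fat library was below every chow library, and high-fat library 3 was the lowest. Ehhadh, the bifunctional enzyme of the peroxisome, was at 449, 559 and 664 CPM on chow and 276, 308 and 375 CPM on the high-fat diet (-0.80 ± 0.11, adjusted p = 0.000842). The thiolase Acaa1b fell by 0.98 ± 0.17 on the log2 scale and the mitochondrial thioesterase Acot2 by 1.36 ± 0.22, again without overlap. A smaller fall was measured in Acadm, a mitochondrial dehydrogenase (-0.45 ± 0.09, adjusted p = 0.00897). The list kept 9 to 13 falls when any 1 library was left out, 13 without chow 1 and 2, 7 without chow 3 and 4 and 6 without high-fat 3 and 6, where Acadm lost its call (adjusted p = 0.0555).

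Of 19 tested genes of fat uptake and lipid droplets 4 fell and 1, Fabp2, rose, against 2.9% and 2.65% of all genes. Cd36, the fatty acid translocase, was at 122, 146 and 154 CPM on chow and 45.9, 55.6 and 105 CPM on the high-fat diet (-1.15 ± 0.17, adjusted p = 0.00146). Pparg, the nuclear receptor that drives fat storage and whose targets include Cd36, was at 7.59, 9.67 and 11.5 against 4.43, 5.31 and 6.75 CPM (-0.85 ± 0.13, adjusted p = 0.00223). Fitm1, an endoplasmic reticulum protein that helps lipid droplets form, was at 5.07, 9.26 and 16.7 against 1.30, 2.10 and 4.24 CPM (-2.01 ± 0.32, adjusted p = 0.00293). In these 3 genes every high-fat library was below every chow library. Pnpla2, the gene of adipose triglyceride lipase, fell by 0.49 ± 0.10 on the log2 scale (adjusted p = 0.00992), and without high-fat libraries 3 and 6 its adjusted p was 0.0647.

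Few genes of cholesterol synthesis passed. All 25 tested members had values below 0, with a median of -0.46, and 4 were called as falls, against 2.9% of all genes: Hmgcs1, Msmo1, Fdft1 and Srebf2. In none of the 25 was every high-fat library below every chow library. Hmgcs1, the enzyme before the rate-limiting reductase, was at 489, 714 and 1656 CPM on chow and 273, 317 and 602 CPM on the high-fat diet (-1.19 ± 0.28, adjusted p = 0.0253). Msmo1, a late sterol oxidase, was at 133, 194 and 561 against 77.1, 87.7 and 164 CPM (-1.37 ± 0.32, adjusted p = 0.024). In both genes library 2 of each diet was the highest of its group, and high-fat library 2 reached into the range of chow. Without high-fat 6 no member was called, with adjusted p = 0.0553 for Hmgcs1 and 0.0517 for Msmo1; 2 were called without chow 2, chow 6, high-fat 1, high-fat 3, high-fat 4 or high-fat 5, and 0 without high-fat 3 and 6 together.

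Many detoxifying enzymes fell. Of 30 tested xenobiotic cytochromes 12 fell and 2 rose, against 2.9% and 2.65% of all genes, with a median of -0.53. In 10 of the 30 every high-fat library was below every chow library (2.36% of all genes). Cyp2b10, the standard target of the receptor CAR, was at 157, 165 and 188 CPM on chow and 4.54, 9.61 and 12.03 CPM on the high-fat diet (-4.23 ± 0.21, adjusted p = 1.33e-07). Cyp3a11, the main target of PXR, was at 3089, 3384 and 4343 against 867, 1130.3 and 1369.7 CPM (-1.68 ± 0.14, adjusted p = 2.55e-05). Cyp2c55, a cytochrome inducible through the same receptors, was at 5.78, 12.6 and 16.4 against 1.21, 1.52 and 4.18 CPM (-2.54 ± 0.32, adjusted p = 0.000455). The chow and high-fat libraries did not overlap in any of these 3 genes. Por, the reductase that supplies electrons to all microsomal cytochromes, was at 288, 336 and 633 CPM on chow and 138, 194 and 213.2 CPM on the high-fat diet (-1.12 ± 0.19, adjusted p = 0.0044). The 2 cytochromes that rose, Cyp3a41a and Cyp3a44, are female-biased and are described with the other genes of sex-biased expression. Leaving out 1 library gave 10 to 13 falls, and the pairs of chow 1 and 2, chow 3 and 4 and high-fat 3 and 6 gave 9, 12 and 9; 1 cytochrome rose without either chow pair and 3 without the high-fat pair.

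Of 30 tested genes of glutathione conjugation and antioxidant defence 13 fell and none rose, against 2.9% and 2.65% of all genes, with a median of -0.38. Leaving out libraries, singly or in the 3 pairs, gave 11 to 14 falls. Gsta1 and Gsta2, alpha-class glutathione transferases, changed most. Gsta2 was at 29.5, 68.3 and 131 CPM on chow and 1.26, 3.59 and 7.01 CPM on the high-fat diet (-4.13 ± 0.41, adjusted p = 8.99e-05), and Gsta1 at 8.34, 29.1 and 53.2 against 0.816, 1.61 and 2.92 CPM (-4.21 ± 0.47, adjusted p = 0.000159). The 2 genes are near-identical copies, so the split of reads between them is uncertain. The mu-class transferases Gstm3 and Gstm4 fell by 1.59 ± 0.21 and 1.31 ± 0.14 on the log2 scale. Ephx1, the microsomal epoxide hydrolase, was at 292, 389 and 527 CPM on chow and 116, 139 and 159 CPM on the high-fat diet (-1.52 ± 0.13, adjusted p = 2.55e-05). Nqo1, a quinone reductase and standard target of NRF2, was at 13.8, 17.2 and 19.2 against 6.49, 7.69 and 10.04 CPM (-1.07 ± 0.13, adjusted p = 0.000245). In each of these genes all 6 high-fat libraries were below all 6 chow libraries. Of 23 tested conjugation enzymes 4 fell and none rose, against 2.9% and 2.65% of all genes, and 1 fell without high-fat 3 and 6. Among the 4 was the glucuronosyltransferase Ugt1a9 at 91.5, 108 and 152 against 32.7, 42.6 and 52.0 CPM (-1.45 ± 0.16, adjusted p = 0.000133). Outside that list the sulfotransferase Sult2a7 was at 21.4, 32.5 and 48.4 CPM on chow and 0.0649, 2.08 and 6.52 CPM on the high-fat diet (-3.73 ± 0.48, adjusted p = 0.000511), and it has close copies in its gene cluster. The exporters of conjugates at the sinusoidal membrane were lower too. Abcc3 was at 387, 511 and 580.0 CPM on chow and 131, 211 and 267 CPM on the high-fat diet (-1.28 ± 0.17, adjusted p = 0.000524), and Abcc4 at 8.72, 11.3 and 15.1 against 2.09, 3.65 and 4.67 CPM (-1.69 ± 0.18, adjusted p = 0.000133), with no overlap.

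Metallothioneins, the small proteins that bind zinc and copper, fell in every high-fat library. Mt2 was at 32.4, 45.0 and 82.3 CPM on chow and 1.05, 3.30 and 11.1 CPM on the high-fat diet (-3.57 ± 0.42, adjusted p = 0.000248), and Mt1 at 92.8, 129.9 and 208 against 9.34, 20.99 and 44.5 CPM (-2.66 ± 0.32, adjusted p = 0.000305). High-fat library 4 was the highest of its group in both and still below every chow library; without it the change of Mt2 was -4.17. Zinc carriers moved by less and in both directions. Slc39a14, a zinc and iron importer, was at 183, 245.5 and 261 CPM against 305, 334 and 351 CPM (0.50 ± 0.09, adjusted p = 0.0079), and Slc39a4, a zinc importer, at 54.7, 61.5 and 68.4 against 34.6, 42.5 and 47.1 CPM (-0.58 ± 0.09, adjusted p = 0.00212). These 4 were the calls, 3 falls and 1 rise, among 11 tested genes of metallothioneins and zinc transport, against 2.9% and 2.65% of all genes.

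Among 16 genes of retinoid metabolism 4 fell and 1 rose, against 2.9% and 2.65% of all genes. Cyp26a1, which breaks down retinoic acid and is induced by it, was at 18.4, 53.5 and 117 CPM on chow and 2.66, 7.45 and 22.3 CPM on the high-fat diet (-2.48 ± 0.54, adjusted p = 0.019); chow library 6 lay within the range of the high-fat libraries. Retsat, a retinol saturase, was at 396, 524 and 620.3 against 90.8, 202 and 253 CPM (-1.40 ± 0.20, adjusted p = 0.000956). Bco1, which cleaves beta-carotene to retinal, went the other way, at 5.84, 6.32 and 7.34 CPM on chow and 9.73, 12.5 and 14.5 CPM on the high-fat diet (0.97 ± 0.11, adjusted p = 0.000201). The groups of Retsat and Bco1 did not overlap. Of 30 tested genes of amino acid metabolism and the urea cycle 8 fell and none rose, against 2.9% and 2.65% of all genes, with a median of -0.35. This count was small in many smaller sets, with 5 falls without chow 1, chow 3, high-fat 1, high-fat 3 or high-fat 4. It was 4 without high-fat 6 and 3 without chow 2, chow 6 or high-fat 2. It was 3 without chow 1 and 2, 7 without chow 3 and 4, and 1 without high-fat 3 and 6. Cth, the enzyme that makes cysteine from cystathionine, was at 409, 638 and 857 CPM on chow and 197, 252 and 383 CPM on the high-fat diet (-1.24 ± 0.20, adjusted p = 0.00239) and was called in every one of these fits. Csad, which turns cysteine sulfinate into the precursor of taurine, was at 110.5, 169.6 and 310.0 against 38.3, 42.8 and 75.3 CPM (-1.94 ± 0.24, adjusted p = 0.000384), again with all high-fat libraries below all chow libraries.

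A good part of the chaperones of the endoplasmic reticulum rose. The unfolded protein response raises these chaperones when proteins fail to fold, and its factor ATF6 binds an element called ERSE in their promoters. Of 22 tested genes of this response 9 rose and none fell, against 2.65% of all genes, and 21 had values above 0, with a median of 0.43. Promoters with the element are shown for 3 genes because these belong to genes that rose. ERSE was searched on both strands as CCAAT and CCACG with 9 bases of any kind between them, a motif chosen with the results known, in RefSeq promoter windows on GRCm38.p6 that run from 250 bases before to 50 bases after the gene start. It was present in 8 of the 19 list members that have a window (42.1%) and in 37 of 27025 genes overall (0.137%). Capitals mark the match, and each stretch is written 5′ to 3′ along the gene's own strand: Hspa5 at chr2:34771985-34772083 on the plus strand, Hsp90b1 at chr10:86705493-86705694 on the minus strand and Creld2 at chr15:88819480-88819578 on the plus strand.
Hspa5: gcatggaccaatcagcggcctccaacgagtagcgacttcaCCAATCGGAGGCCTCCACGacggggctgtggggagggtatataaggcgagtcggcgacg
Hsp90b1: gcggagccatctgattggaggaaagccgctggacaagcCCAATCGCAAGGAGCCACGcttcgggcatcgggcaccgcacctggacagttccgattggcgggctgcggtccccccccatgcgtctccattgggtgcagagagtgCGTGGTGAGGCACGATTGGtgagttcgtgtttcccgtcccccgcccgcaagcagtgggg
Creld2: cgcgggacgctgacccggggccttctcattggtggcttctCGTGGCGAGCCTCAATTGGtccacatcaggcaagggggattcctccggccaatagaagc

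The match of Hspa5 starts 65 bases before the gene start, those of Hsp90b1 212 and 107 bases before it and that of Creld2 126 bases before it; the second match of Hsp90b1 and the match of Creld2 read on the opposite strand. Hspa5, the chaperone BiP, was at 349, 482 and 569 CPM on chow and 696, 963 and 1056 CPM on the high-fat diet (0.94 ± 0.15, adjusted p = 0.00231). Creld2, a secreted disulphide isomerase, was at 9.71, 13.5 and 19.5 against 26.4, 47.7 and 80.5 CPM (1.81 ± 0.29, adjusted p = 0.0027). Hsp90b1, the chaperone GRP94, was at 648, 708 and 783 against 809, 975 and 1056 CPM (0.43 ± 0.09, adjusted p = 0.0165). In each of the 3 genes the lowest high-fat library was above the highest chow library, and high-fat libraries 4, 5 and 6 were the highest. Manf, a secreted factor resident in the endoplasmic reticulum, was at 24.4, 37.8 and 44.8 CPM on chow and 56.9, 96.2 and 122 CPM on the high-fat diet (1.31 ± 0.20, adjusted p = 0.00207). Hyou1, the exchange factor of BiP, was at 71.3, 102.1 and 173 against 184, 296 and 344 CPM (1.34 ± 0.23, adjusted p = 0.00489), and Dnajb11, a J-domain partner of BiP, at 50.9, 65.2 and 74.5 against 78.4, 105 and 122 CPM (0.68 ± 0.13, adjusted p = 0.0106). The other calls were Pdia4, Sdf2l1 and Sel1l, while Calr, Canx, Pdia6, Dnajc3 and Syvn1, which also carry the element, did not pass. In high-fat libraries 4, 5 and 6 Hspa5 was at 1030.5, 1056 and 1012 CPM and the acinar sum at 25.8, 15.8 and 206 CPM; the part of acinar RNA in these rises was not tested. The count was 14 without chow 5 and 7 without chow 2, high-fat 3 or high-fat 5. It was 6 without chow 3, chow 6, high-fat 4 or high-fat 6. Leaving out chow 1 and 2 gave 6, and leaving out chow 3 and 4 gave 7. Without high-fat 3 and 6 the count was 4, and there Hsp90b1 and Dnajb11 had adjusted p = 0.0717 and 0.0662. Of 16 tested genes of the integrated stress response, the branch that runs through ATF4, 1 rose (Atf5) and 1 fell (Cth), against 2.65% and 2.9% of all genes; the rises numbered 3 without chow 3, chow 5 or high-fat 5, 2 without chow 1 or without chow 3 and 4, and 0 without high-fat 3 and 6.

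Many genes induced by interferon rose in the high-fat livers. Of 32 tested genes 10 rose and none fell, against 2.65% and 2.9% of all genes. All 32 had values above 0, with a median of 0.46. Interferon acts through a complex that holds STAT2 and IRF9 and binds the interferon-stimulated response element, searched here on both strands of the same promoter windows as GAAA and again GAAA with 2 bases of any kind between them; overlapping matches count separately. The element was present in 16 of the 23 list members with a window (69.6%) and in 1079 of 27025 genes overall (3.99%). Promoters of 3 genes that rose are shown with the match in capitals: Oas1a at chr5:120907526-120907585 on the minus strand, its near-identical neighbour Oas1g at chr5:120887614-120887671 on the minus strand, and Stat2 at chr10:128270248-128270325 on the plus strand.
Oas1a: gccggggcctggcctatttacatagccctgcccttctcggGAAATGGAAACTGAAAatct
Oas1g: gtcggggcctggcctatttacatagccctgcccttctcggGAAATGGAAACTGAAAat
Stat2: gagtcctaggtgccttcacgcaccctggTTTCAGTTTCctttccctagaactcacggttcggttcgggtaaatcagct

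Oas1a and Oas1g each hold a pair of overlapping matches, starting 20 and 14 and 18 and 12 bases before the gene start, and the match of Stat2 reads on the opposite strand and starts 222 bases before it. Oas1a, an oligoadenylate synthetase that senses double-stranded RNA, was at 2.97, 4.66 and 5.79 CPM on chow and 8.05, 11.3 and 18.7 CPM on the high-fat diet (1.41 ± 0.20, adjusted p = 0.00124). Oas1g was at 2.67, 3.84 and 4.63 against 5.72, 8.402 and 13.6 CPM (1.19 ± 0.21, adjusted p = 0.00569), with the reservation that reads of such copies can be split between them. Stat2 was at 86.5, 95.3 and 112 against 113, 138 and 148 CPM (0.45 ± 0.09, adjusted p = 0.0138). The groups were apart in these 3 genes, and high-fat library 3, which had the highest immune cell sums, was the highest in both Oas1 genes. Irf7, the factor that amplifies the interferon response, was at 29.1, 32.4 and 39.6 CPM on chow and 40.01, 52.5 and 91.7 CPM on the high-fat diet (0.77 ± 0.17, adjusted p = 0.0197), and Ifi44 at 4.06, 5.97 and 9.27 against 9.12, 14.4 and 24.4 CPM (1.29 ± 0.25, adjusted p = 0.0102). In Ifi44 a single high-fat library reached into the range of chow. Without high-fat libraries 3 and 6 the list held 4 rises and Stat2 had an adjusted p of 0.0785; without chow 3 and 4 it held 5, and Irf7 had 0.0615. Any single library left out gave 7 to 11.

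Further elements were searched in the promoters of other lists, on both strands of the same windows. The direct repeat DR1, AGGTCA and again AGGTCA with 1 base between them, which PPARα reads, was present in 0 of 19 fatty acid oxidation genes and in 0.0481% of all genes. The sterol element SRE, TCACNCCAC, was present in 1 of 17 cholesterol synthesis genes (5.88%, against 1.44%). The STAT5 element TTCNNNGAA was present in 1 of 23 male-biased genes (4.35%), 6 of 21 female-biased genes (28.6%) and 6 of 18 genes of growth hormone and IGF (33.3%), against 9.55% of all genes. Among 17 clock genes the E-box CACGTG was present in 5 (29.4%), against 8.09% of all genes and 11.45% of tested genes. The D-box TTATGNAA was present in 2, against 3.99% of all genes and 2.8% of tested genes. A match describes these letters in the window and nothing more.

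Macrophage transcripts rose as well, less firmly. Of 24 tested macrophage genes 10 rose and none fell, against 2.65% and 2.9% of all genes. All 24 had values above 0, and the median was 0.93, the highest of the 34 gene lists. In whole liver, more cells of a type and more RNA per cell cannot be told apart. The summed level of the 5 Kupffer cell markers fixed for the check of cell types (Clec4f, Vsig4, Timd4, Cd5l and Marco) was between 109 and 288 CPM on chow and between 314 and 742 CPM on the high-fat diet, without overlap. All 5 had values above 0, and only Clec4f and Cd5l were called. Of 15 tested genes of the Kupffer cell list 2 rose, against 2.65% of all genes, and none did without chow 2 or high-fat 2. The sum over monocyte and macrophage markers was 4.77 to 10.1 CPM on chow and 5.93 to 39.1 CPM on the high-fat diet, with high-fat library 3 at the top. Clec4f, the lectin that marks mouse Kupffer cells, was at 51.1, 95.3 and 120.0 CPM on chow and 129, 159 and 201 CPM on the high-fat diet (0.79 ± 0.18, adjusted p = 0.0216). Cd5l, a scavenger protein secreted by these cells, was at 35.5, 96.1 and 111 against 122, 155 and 309.7 CPM (1.15 ± 0.28, adjusted p = 0.0308). Aif1, a cytoskeletal protein of macrophages, was at 2.97, 3.63 and 4.69 against 5.54, 6.46 and 18.5 CPM (1.27 ± 0.29, adjusted p = 0.0236), and the myeloid factor Spi1 at 2.67, 3.50 and 4.84 against 4.89, 7.03 and 15.6 CPM (1.17 ± 0.27, adjusted p = 0.0256). Chow library 1 was the lowest of all 12 in Clec4f and Cd5l, and high-fat library 3 the highest in Cd5l, Aif1 and Spi1. These calls were fragile: the macrophage count was 6 without chow 1, 4 without chow 4, high-fat 1 or high-fat 3, and 2 without chow 2, chow 6 or high-fat 2, and it was 2, 1 and 3 without chow 1 and 2, chow 3 and 4, and high-fat 3 and 6. Clec4f had an adjusted p of 0.0508 without chow 2 and 0.0509 without high-fat 2, and Aif1, Spi1 and Cd5l lost their call without chow 2, chow 6 or high-fat 2, Cd5l also without high-fat 3. Of 16 tested genes of lipid-associated macrophages none was called, nor any of 27 of the extracellular matrix, with medians of -0.06 and 0.15.

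**Figure D4:**
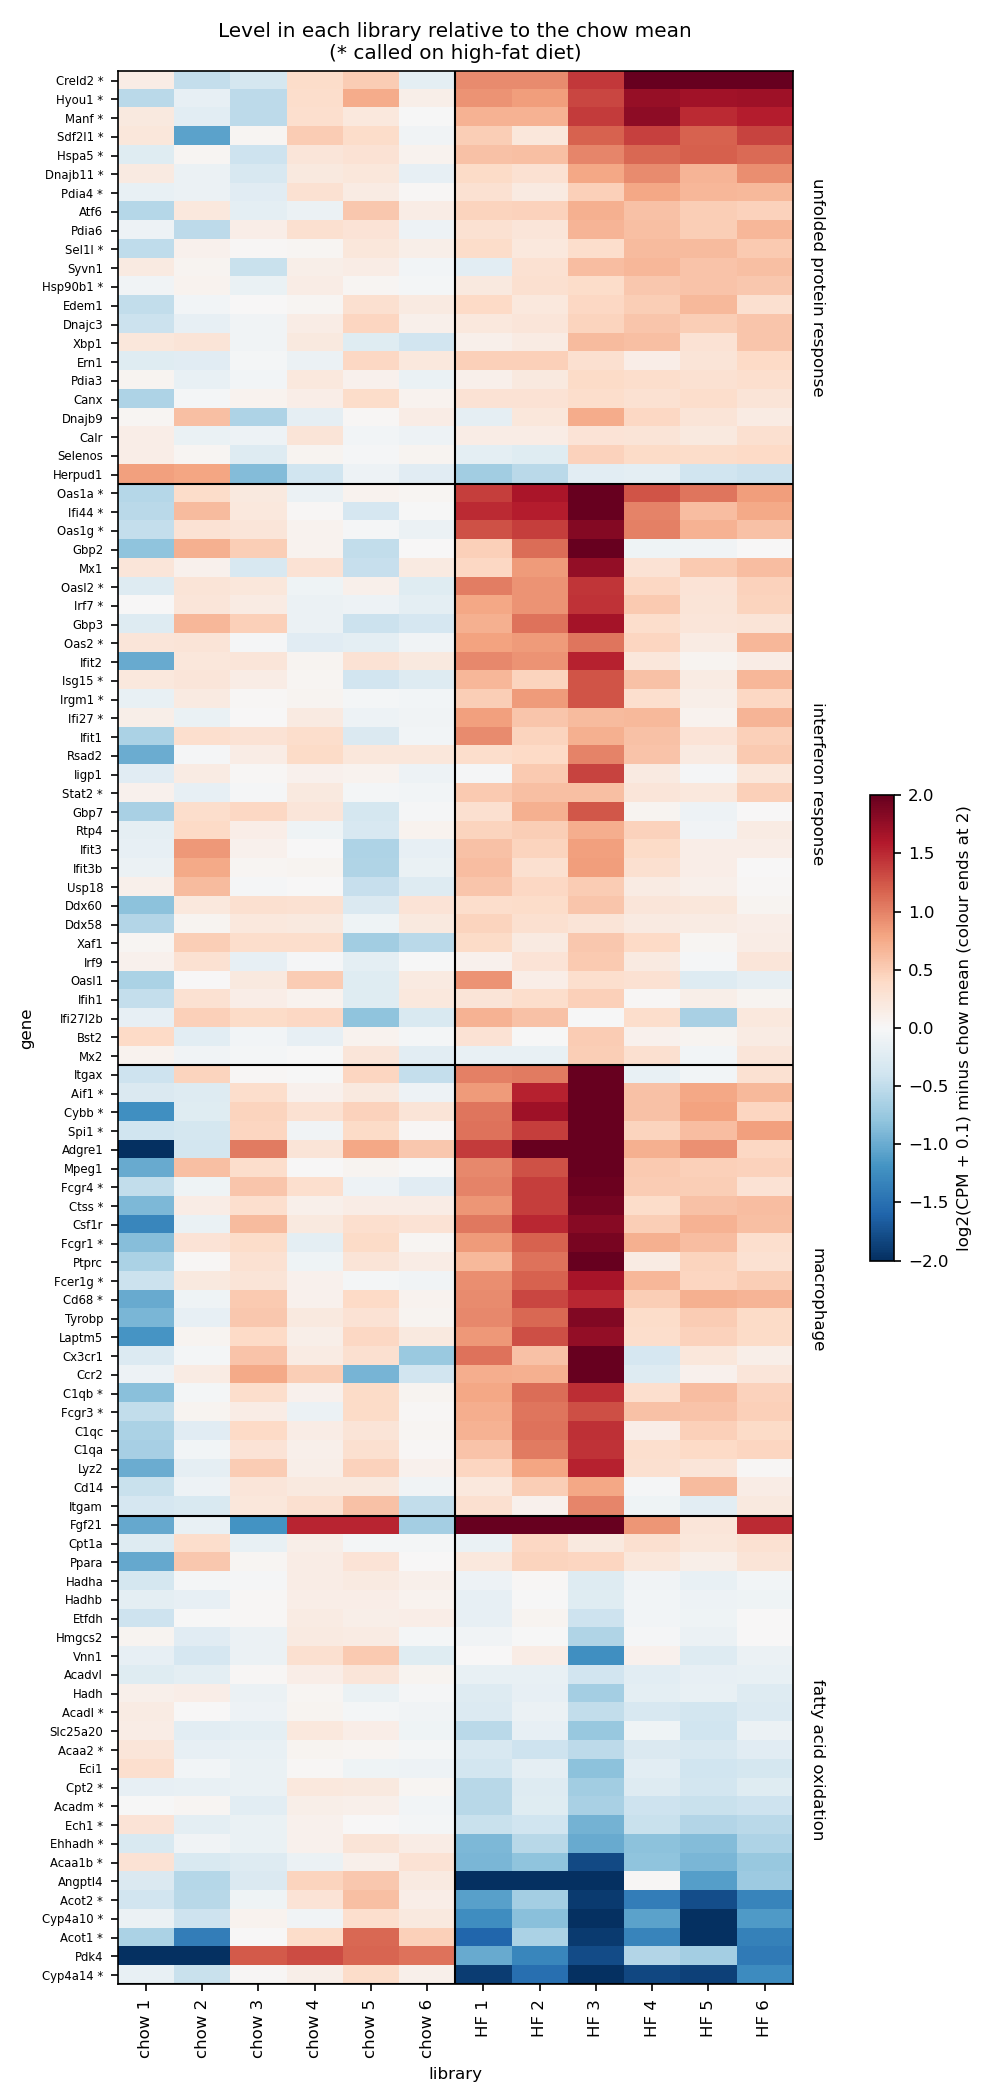
Rows are tested genes of the unfolded protein response, interferon, macrophage and fatty acid oxidation lists and columns the 12 libraries; colour gives log2(CPM + 0.1) minus the chow mean, red higher and blue lower, ending at 2, and a star marks a called gene. High-fat columns are redder in the first 3 blocks and bluer in the fatty acid oxidation block, high-fat 3 is the reddest column of the macrophage and interferon blocks, and high-fat 4 to 6 are the reddest of the unfolded protein response block.

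Genes that differ between the sexes in mouse liver moved in both directions. Of 24 tested male-biased genes 5 rose and 2 fell (median 0.10), and of 27 female-biased genes 3 rose and 4 fell (median -0.17). Of all genes 2.65% rose and 2.9% fell. The 2 male-biased falls were 1 without chow 1, 2 or 6 or high-fat 1, 2, 4 or 5, and the 3 female-biased rises were 2, 2 and 5 without the pairs of chow 1 and 2, chow 3 and 4 and high-fat 3 and 6. Hsd3b5, a hydroxysteroid dehydrogenase of male liver, was at 0.0825, 0.3903 and 0.713 CPM on chow and 6.97, 14.5 and 55.95 CPM on the high-fat diet (5.92 ± 0.67, adjusted p = 0.000176). Slco1a1, an organic anion carrier that is higher in males, was at 14.4, 32.7 and 54.3 against 108, 175 and 275 CPM (2.45 ± 0.38, adjusted p = 0.00213). In both the groups were apart, with Hsd3b5 low in every chow library. Nudt7, a peroxisomal hydrolase of coenzyme A, was at 128, 148 and 153 against 211, 287 and 378 CPM (0.96 ± 0.13, adjusted p = 0.000673), and Mup21, a major urinary protein of a family with many near copies, at 9.62, 15.03 and 21.9 against 28.5, 38.7 and 49.2 CPM (1.30 ± 0.18, adjusted p = 0.000783). Among the female-biased genes the cytochrome Cyp3a41a was at 227, 518 and 961 CPM on chow and 437, 2911 and 3126 CPM on the high-fat diet (2.14 ± 0.42, adjusted p = 0.0105), and its near-identical copy Cyp3a41b gave 2.19 ± 0.44 (adjusted p = 0.0119). Cyp3a44 was at 80.6, 168 and 273 against 118, 593 and 751 CPM (1.67 ± 0.36, adjusted p = 0.0173). In all 3 the groups overlapped through high-fat library 3, which stayed at the level of chow, while the other 5 were above every chow library. Without chow 1 and 2 the adjusted p of Cyp3a41b was 0.0517 and that of Cyp3a44 0.0575, and without chow 3 and 4 that of Cyp3a44 was 0.0604. Their neighbour Cyp3a16 differed by 0.75 ± 0.51 (adjusted p = 0.396). Female-biased genes that fell were Cyp2b10, Abcc4, Cyp4a10 and Cyp2b13.

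Among 19 tested genes of growth hormone action and the IGF system 2 rose and 1 fell, against 2.65% and 2.9% of all genes. The fall was lost without chow 3, 4 or 6 or high-fat 1, 2, 4, 5 or 6. Cish, a feedback inhibitor that STAT5 induces after growth hormone, was at 7.69, 21.1 and 29.6 CPM on chow and 37.8, 63.1 and 72.9 CPM on the high-fat diet (1.54 ± 0.25, adjusted p = 0.00281). Onecut1, a liver factor that growth hormone regulates, was at 5.65, 12.4 and 39.2 against 37.2, 50.3 and 58.1 CPM (1.67 ± 0.36, adjusted p = 0.0185); chow library 4 was high, and without high-fat 3 and 6 the adjusted p was 0.078. Lifr, the female-biased receptor of leukaemia inhibitory factor, was at 359, 439.6 and 552 against 582, 776 and 879.6 CPM (0.73 ± 0.13, adjusted p = 0.00525). Igf1, the hormone whose secretion growth hormone drives, was at 582, 720.4 and 908 against 719, 839 and 954 CPM, a difference of 0.22 ± 0.12 that did not pass (adjusted p = 0.272).

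Some of the largest changes lay outside these lists. Serpina12, which encodes the adipokine vaspin, was at 0.412, 1.86 and 2.40 CPM on chow and 9.67, 32.3 and 48.03 CPM on the high-fat diet (4.22 ± 0.37, adjusted p = 3.31e-05). Kcnk10, a potassium channel of the background type, was at 0.330, 0.638 and 1.16 against 3.85, 4.60 and 6.75 CPM (2.82 ± 0.28, adjusted p = 8.99e-05). Slc22a7, an organic anion carrier, was at 9.40, 14.1 and 17.5 against 32.98, 51.4 and 70.9 CPM (1.93 ± 0.19, adjusted p = 8.99e-05). The diets did not overlap in any of the 3. Dntt, known as the template-free DNA polymerase of developing lymphocytes, was at 0.769, 1.36 and 1.87 CPM on chow and 3.14, 4.65 and 8.28 CPM on the high-fat diet (2.00 ± 0.29, adjusted p = 0.00136), and the signalling adaptor Stap1 at 0.495, 1.08 and 2.23 against 3.68, 4.37 and 5.25 CPM (1.99 ± 0.26, adjusted p = 0.000548). T cell markers summed to at most 10.7 CPM on chow and 15.5 CPM on the high-fat diet, and the part of lymphocytes in these rises was not tested. Among the falls, Adam11, a catalytically inactive member of the ADAM proteins, was at 33.3, 40.5 and 78.1 CPM on chow and 3.41, 7.17 and 8.51 CPM on the high-fat diet (-2.81 ± 0.24, adjusted p = 2.55e-05). Snhg11, a host gene of small nucleolar RNA, was at 6.84, 9.80 and 23.2 against 0.325, 1.05 and 1.48 CPM (-3.56 ± 0.36, adjusted p = 8.99e-05). Raet1e, a ligand of the receptor NKG2D, was at 17.9, 27.1 and 39.2 against 2.27, 4.51 and 5.71 CPM (-2.78 ± 0.24, adjusted p = 2.55e-05). All 6 high-fat libraries were below all 6 chow libraries in these 3 genes. Robo1, a guidance receptor, fell by 1.51 ± 0.20 on the log2 scale, and the secreted protease Adamts7 by 1.19 ± 0.18.

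The 2 tested maternally expressed long RNAs of the imprinted Dlk1-Dio3 region fell together. Meg3 was at 6.53, 10.6 and 33.98 CPM on chow and 1.43, 2.42 and 4.11 CPM on the high-fat diet (-2.49 ± 0.39, adjusted p = 0.00223), and Rian at 3.23, 4.65 and 14.1 against 0.738, 0.773 and 1.17 CPM (-2.80 ± 0.36, adjusted p = 0.000511). The groups were apart in both, chow library 1 was the highest in both, and without chow 1 and 2 the change of Meg3 was -1.89. Meg3, Rian and Snhg11 are long RNAs, and because the strand setting of the counting is not given, reads of overlapping genes cannot be told apart.

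Other large values followed single libraries. Mylpf, a myosin light chain of fast skeletal muscle, was called as a fall of 4.24 ± 0.99 on the log2 scale (adjusted p = 0.0242). On chow it was at 0.990, 2.42 and 40.8 CPM, with the highest values in chow libraries 3 and 4, which carried the muscle transcripts. Without these 2 libraries the change was -1.35 (adjusted p = 0.0602), and without chow 3 alone it was -3.42. The call was also lost without high-fat 1 (0.0501), high-fat 2 (0.0517) or high-fat 6 (0.0506). Usp2, a deubiquitinase under clock control, was the single call among 18 tested clock genes (-3.03 ± 0.83, adjusted p = 0.0472), where 2.9% of all genes fell. It was at 1.61, 2.72 and 41.6 CPM on chow and 1.30, 1.58 and 2.67 CPM on the high-fat diet. Its high values were those of chow libraries 1 and 2, as for Dbp, which differed by -3.31 ± 1.22 (adjusted p = 0.121); without this pair Usp2 gave -0.43 (0.32) and Dbp 2.25 (0.0217), the opposite direction. Usp2 also lost its call without chow 1 (0.0832), chow 2 (0.113) or any 1 of the 6 high-fat libraries. The clock list as a whole held 3 falls and 1 rise without chow 1 and 2. It held 6 falls in the fit of all liver groups and 0 without high-fat 3 and 6.

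The remaining lists held few calls, to be set against the 2.65% of all genes that rose and the 2.9% that fell. Of 27 tested secreted factors of the liver 4 rose and 2 fell; Inhbc, an inhibin beta chain made by hepatocytes, was at 14.97, 30.7 and 51.05 CPM on chow and 51.7, 69.01 and 88.1 CPM on the high-fat diet (1.21 ± 0.26, adjusted p = 0.0158), and its adjusted p was 0.083 without high-fat 3 and 6. That list held 2 rises without chow 6, high-fat 1 or high-fat 2, and 1 fall without chow 1, chow 2, high-fat 2, high-fat 3 or high-fat 6. Of 24 tested bile acid genes Slco1a1 rose and Abcc3, Abcc4 and Cyp27a1 fell. The rises numbered 3 without chow 5 and 2 without chow 2. Leaving out any 1 library, or any of the 3 pairs, gave 2 falls, as Cyp27a1 lost its call. All 32 tested genes of oxidative phosphorylation had values below 0, with a median of -0.23, and 1 was called (Ndufv1), near the 2.9% of all genes; 3 fell without chow 1, 2 without chow 5 and none without any other library but high-fat 5, while the fit of all liver groups called 17. Of 27 acute phase and complement genes 3 rose and 3 fell, the falls being Mt1, Mt2 and Orm2; the rises numbered 1 without chow 6, high-fat 2 or high-fat 3. Cell proliferation and antigen presentation gave 1 rise each, of 19 and 21 tested, and iron handling and phospholipid genes 1 fall each, of 17 and 19, where 2.65% and 2.9% of all genes were called. The antigen presentation count was 6 without high-fat 5, 4 without high-fat 4 and 0 without chow 2, 4 or 6 or high-fat 2, that of proliferation 2 without high-fat 5 and 0 without chow 2, 3 or 4 or high-fat 1, 2, 3 or 6. The fall among iron genes was lost without chow 2 or 6 or high-fat 2, 3, 4 or 6, and that among phospholipid genes without chow 3, 4, 5 or 6 or high-fat 2, 4, 5 or 6.

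To see where the female response differed from that of males, the 12 libraries were fitted with 12 from B6 males of the same age and diets. The response differed between the sexes in 0.637% of 16016 tested genes, higher in females in 73 and lower in 29. In that fit 1446 genes (9.03%) were called in males, 523 upwards (3.27%) and 923 downwards (5.76%). Female calls came from the fit of 12 libraries and male calls from the fit of 24. Their counts and shared percentages are therefore not like for like. Of the female rises 22.7% also rose in males and of the female falls 53.6% also fell in males, which is 18.8% of the male rises and 27.2% of the male falls; the responses share no library. The largest differences above 0 were those of sex-biased genes, and levels here are on the scale of the 24 libraries. Hsd3b5 was at 161, 204 and 249.3 CPM in chow males and 289.9, 317 and 358 CPM in high-fat males, so that the females rose from near absence to levels still below every male, and the female minus the male response was 5.26 ± 0.66 (adjusted p = 4.72e-05). Cyp3a41a was at 92.0, 123 and 129 CPM in chow males and fell to 10.7, 15.8 and 18.1 CPM in high-fat males, with a difference of responses of 5.07 ± 0.48 (adjusted p = 8.02e-07). Cyp3a41b, Cyp3a44 and Cyp3a16 behaved likewise, with 5.14 ± 0.50 (adjusted p = 1.05e-06), 4.78 ± 0.42 (adjusted p = 2.61e-07) and 4.06 ± 0.71 (adjusted p = 0.00548). In these 4 cytochromes the male libraries fell without overlap. Cyp3a11 fell in both sexes and less in females, by 1.03 ± 0.18 (adjusted p = 0.00511), and Slc39a4 fell to 5.602, 8.09 and 10.5 CPM in high-fat males from 27.9, 56.3 and 66.2 CPM, a difference of 2.11 ± 0.23 (adjusted p = 4.65e-06). Nudt7 was at 624, 710.5 and 822 CPM in chow and 647, 702 and 829 CPM in high-fat males, above every female on either diet, and the difference was 0.97 ± 0.16 (adjusted p = 0.00231); in the fit of all liver groups its adjusted p was 0.0978.

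**Figure D5:**
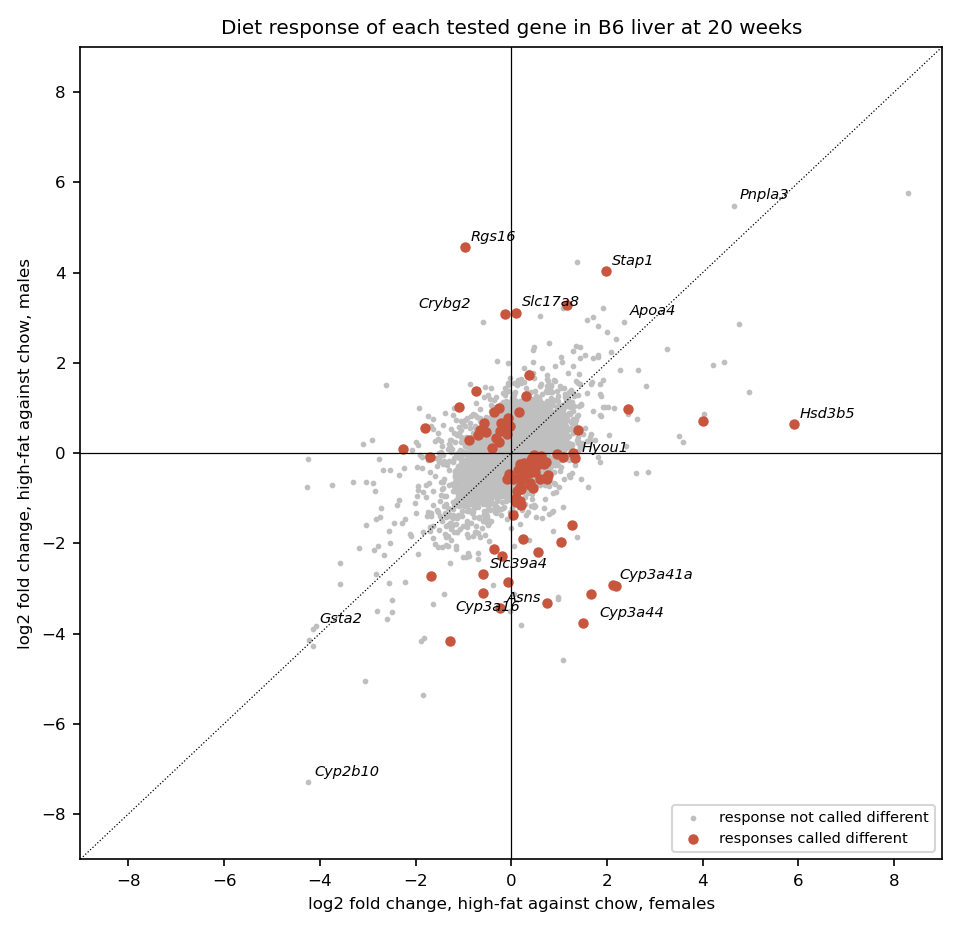
Each point is a gene tested in the 24 B6 liver libraries at 20 weeks, with the log2 fold change of high-fat over chow in females on the x axis and in males on the y axis; red points are the genes whose responses were called different. Hsd3b5 and the Cyp3a41, Cyp3a44 and Cyp3a16 cytochromes lie right of the diagonal with female values above the male ones, and Rgs16, Crybg2 and Slc17a8 lie above it.

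Several genes responded in males and did not pass in females. Rgs16, a regulator of G protein signalling that follows feeding, was at 0.165, 2.11 and 4.15 CPM in chow males and 9.71, 28.7 and 155 CPM in high-fat males, against 23.8, 41.9 and 179.8 and 6.24, 17.7 and 109.7 CPM in females, a difference of -5.53 ± 1.08 (adjusted p = 0.0117). Without high-fat 1 it was -6.37 and without chow 2 -4.93, called both times. The vesicular glutamate carrier Slc17a8 was at 3.68, 4.85 and 11.2 CPM in chow males and 36.7, 55.8 and 59.9 CPM in high-fat males, with -3.01 ± 0.33 (adjusted p = 5.58e-06), and Crybg2 at 0.330, 0.595 and 1.25 and 4.27, 5.42 and 9.12 CPM, with -3.20 ± 0.35 (adjusted p = 5.58e-06). High-fat males reached the female level of Crybg2, which did not differ by diet beyond the spread (4.56, 5.57 and 8.29 and 4.30, 4.91 and 7.99 CPM). Stap1 rose in both sexes and more in males (-2.04 ± 0.38 (adjusted p = 0.0087)). In the unfolded protein response 1 of 22 genes rose in males, with a median of -0.00, and the test of the difference passed for 2, against 0.456% of all genes for differences above 0. Manf was at 21.6, 33.6 and 39.2 and 50.05, 85.3 and 108 CPM in chow and high-fat females and at 66.6, 108 and 124 and 60.7, 95.2 and 171 CPM in males, with a difference of 1.30 ± 0.30 (adjusted p = 0.0387). Hyou1 differed by 1.44 ± 0.34 (adjusted p = 0.0463), and Hspa5 and Creld2 by 0.86 ± 0.24 (adjusted p = 0.0917) and 1.90 ± 0.48 (adjusted p = 0.0626), which did not pass. Chow males thus lay at the level of high-fat females in Manf, where the ranges overlap. The call of Manf was lost without chow 2, chow 3, chow 6 or high-fat 3, 4, 5 or 6, with adjusted p up to 0.0984 over all alternatives, and that of Hyou1 without any 1 library other than chow 5, high-fat 1 and high-fat 2 and with RLE factors, with values up to 0.105. In the interferon list 23 of 32 genes rose in males (median 0.77), in the macrophage list none of 24, and in neither list was a difference between the sexes called. Acute phase and complement genes fell in males in 12 of 27 cases and none rose, against 5.76% and 3.27% of all genes. The difference between the sexes passed for 5 of these 27, all above 0, against 0.456% of all genes. The 0.637% of genes that differed became 1.77% without chow 5, 1.22% without chow 1 and 2 and 0.393% without chow 3 and 4.

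A wider set of sex-biased genes was taken from TH livers on chow at 20 weeks, which share no library with the female B6 comparison. There 3021 of 14962 tested genes (20.2%) differed between the sexes, 1482 higher in males (9.91%) and 1539 higher in females (10.3%), and the sets hold those with at least a 2-fold difference; they were chosen after seeing the data. Of 178 male-high genes tested in female B6 liver, 14 rose and 20 fell on the high-fat diet (7.87% and 11.2%), with a median log2 change of 0.02. Of 308 female-high genes 13 rose and 42 fell (4.22% and 13.6%), with a median of -0.17. All tested genes gave 2.65% and 2.9%. Members of both sets thus moved in both directions, and Hsd3b5, Slco1a1 and the Cyp3a41 cytochromes were single genes among them.

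TH females at 20 weeks changed in 1724 of 16568 tested genes (10.4%) on the high-fat diet, 757 upwards (4.57%) and 967 downwards (5.84%). These calls came from a fit of 24 libraries and those of B6 females from the fit of 12, so the counts are not like for like. Of the B6 female rises 24.4% also rose in TH females and of the falls 51.5% also fell, 14.1% and 25.5% of the TH rises and falls. The strain difference of the response passed in 106 genes (0.64%), above 0 in 51 and below 0 in 55. Values are on the scale of those 24 libraries, and the difference is B6 minus TH. Meg3 and Rian, which fell in B6, were already low in TH: Meg3 was at 1.002, 1.66 and 1.99 CPM on chow and 0.409, 1.65 and 3.01 CPM on the high-fat diet in TH, a difference of -2.65 ± 0.57 (adjusted p = 0.0259), and Rian differed by -2.90 ± 0.57 (adjusted p = 0.0186). Robo1 followed the same order, at 2.01, 2.27 and 2.80 and 1.5999, 2.36 and 3.64 CPM in TH against 18.6, 26.4 and 44.8 and 7.602, 9.91 and 11.7 CPM in B6 (-1.55 ± 0.30 (adjusted p = 0.0152)). Without high-fat 3 and 6 the adjusted p of these 3 was 0.0505. Kcnk10 rose in B6 from 0.329, 0.641 and 1.15 to 3.84, 4.57 and 6.73 CPM, and TH was at 1.36, 2.79 and 6.01 and 3.9997, 4.67 and 5.89 CPM (2.27 ± 0.40 (adjusted p = 0.011)). Ly6a, a surface antigen of the Ly6 family, was at 6.32, 9.76 and 12.6 and 13.1, 17.1 and 40.6 CPM in B6 and fell in TH from 5.77, 13.1 and 18.3 to 1.23, 1.63 and 4.31 CPM (3.47 ± 0.46 (adjusted p = 0.000639)). The collagen chain Col5a2 was at 260.1, 308 and 395 CPM in chow TH and 54.5, 84.6 and 154 CPM in high-fat TH, against 4.67, 7.18 and 12.1 and 4.95, 7.53 and 21.1 CPM in B6 (2.12 ± 0.40 (adjusted p = 0.0152)). B6 was thus low in Col5a2 on either diet. The zinc carrier Slc39a2 fell in TH, and its change of -0.30 in B6 did not pass. The responses of Slc39a2 differed by 1.64 ± 0.29 (adjusted p = 0.011). Fam198a was at 4.20, 8.79 and 12.5 and 9.21, 15.97 and 36.4 CPM in B6 and 0.502, 1.34 and 3.37 and 11.7, 24.1 and 34.4 CPM in TH, where it rose, while its B6 difference of 1.04 ± 0.30 did not pass (adjusted p = 0.0546); the responses differed by -2.89 ± 0.52 (adjusted p = 0.011), and the recombination gene Rad51b differed by -2.97 ± 0.55 (adjusted p = 0.0118). Ugt1a9 and Raet1e fell more in B6, by -1.15 ± 0.25 (adjusted p = 0.0298) and -1.45 ± 0.33 (adjusted p = 0.0377); Ugt1a9 lost its call without chow 6, high-fat 2 or high-fat 4 and Raet1e without chow 1, 3 or 4 or high-fat 3, 5 or 6 and in the fit of all liver groups. Of the unfolded protein response 1 of 22 genes rose in TH, and no member's response was called different between the strains. The 0.64% became 0.392% without chow 3, 1.39% without chow 5, 0.416% without high-fat 6, 1.80% without chow 1 and 2, 0.223% without chow 3 and 4 and 0.199% without high-fat 3 and 6.

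After 1 week of the diet, at 5 weeks of age, 1281 of 16638 tested genes (7.7%) had changed in B6 females, 567 upwards (3.41%) and 714 downwards (4.29%). These calls too came from a fit of 24 libraries and those at 20 weeks from the fit of 12, so the counts are not like for like. Of the rises at 20 weeks 27.01% were also rises at 5 weeks and of the falls 46.5% were also falls, 21.1% and 30.98% of the early rises and falls. The response differed between the ages in 82 genes (0.493%), 42 above and 40 below 0, and age and duration of feeding cannot be told apart in this design. Csad was at 36.3, 46.0 and 58.002 CPM on chow and 38.3, 45.5 and 68.5 CPM on the high-fat diet at 5 weeks, and at 108, 166 and 303 and 37.3, 41.6 and 73.4 CPM at 20 weeks (-1.96 ± 0.30 (adjusted p = 0.00762)). It was the chow level that was higher at 20 weeks. Adam11 showed the same order, with 15.9, 16.7 and 21.3 CPM on chow at 5 weeks and 32.4, 39.6 and 76.1 CPM at 20 weeks, and 5.05, 10.2 and 12.7 and 3.33, 6.97 and 8.29 CPM on the high-fat diet (-1.94 ± 0.31 (adjusted p = 0.00762)). Robo1 and Adamts7 were called different by -1.43 ± 0.26 (adjusted p = 0.00971) and -1.72 ± 0.30 (adjusted p = 0.00762), and for both the lowest median of the 4 groups was that of the high-fat diet at 20 weeks, at 9.70 and 8.75 CPM. Lifr was at 263, 438 and 610.2 and 196, 281 and 306 CPM on chow and high-fat at 5 weeks, a response of -0.77 against a rise at 20 weeks, and the difference was 1.49 ± 0.23 (adjusted p = 0.00762). Onecut1 turned in the same way, at 4.14, 16.7 and 40.4 and 3.49, 4.82 and 12.1 CPM at 5 weeks (3.20 ± 0.64 (adjusted p = 0.0179)), with adjusted p 0.0561 without high-fat 3 and 6. Nudt7 was at 204, 294 and 434 and 159, 220.3 and 309.6 CPM at 5 weeks (1.38 ± 0.24 (adjusted p = 0.00762)). The desaturase Fads2 was at 590.0, 657 and 693 and 572, 607 and 652 CPM at 5 weeks, so that its rise was seen after 16 weeks. The responses of Fads2 differed by 0.75 ± 0.13 (adjusted p = 0.00762). Gpcpd1, a phosphodiesterase of phospholipid breakdown, fell at 5 weeks from 154, 181 and 207 to 40.01, 42.4 and 56.8 CPM. Its change of -0.47 at 20 weeks did not pass, and the responses differed by 1.52 ± 0.29 (adjusted p = 0.0131). Crybg2 differed by -1.83 ± 0.31 (adjusted p = 0.00762), with 0.884, 1.28 and 2.13 and 2.66, 4.54 and 5.97 CPM at 5 weeks.

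Among the sex-biased genes, Hsd3b5 was at 1.74, 5.29 and 23.8 and 13.9, 25.3 and 30.5 CPM on chow and high-fat at 5 weeks, before the low chow level of 20 weeks, and its difference of 4.34 ± 0.96 (adjusted p = 0.0384) was lost without chow 1, 3, 4 or 6 or high-fat 4 or 6. Slco1a1 gave 2.06 ± 0.47 (adjusted p = 0.0438), lost without chow 1, 2 or 4 or high-fat 2, 3, 4 or 6. Raet1e gave -1.83 ± 0.40 (adjusted p = 0.0384) and Retsat -1.13 ± 0.25 (adjusted p = 0.0346); the former was lost without chow 3 or 4 or high-fat 3, 5 or 6, the latter without chow 3, 4 or 6 or high-fat 4. The interferon list held 26 rises of 32 at 5 weeks (median 1.17), the macrophage list 9 of 25 and the unfolded protein response none of 22, and in none of these lists was a member's response called different between the ages. The 0.493% became 1.35% without chow 5, 0.295% without chow 3, 0.282% without chow 4, 0.301% without high-fat 2, 0.319% without high-fat 6, 1.18% without chow 1 and 2, 0.192% without chow 3 and 4 and 0.234% without high-fat 3 and 6.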

How the data were processed

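Poly(A) RNA of liver was sequenced with stranded TruSeq libraries from RNA of integrity number above 8, per the labels' protocols. The submitters' processing notes name Trimmomatic 0.39, HISAT2 2.2.1, SAMtools, DESeq, DESeq2 and build GRCm39; which counter, annotation and strand setting were used is not given in the sources used here. The deposited table holds whole-number counts of reads per gene as the authors made them, not normalized; the deposited normalized and FPKM tables were not used. Samples were grouped by the labels, and 52073 of 56980 identifiers had a symbol in a GENCODE table. No 2 libraries of the groups used were identical. Totals were 11168764 to 15282787 counts in the 12 libraries.

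Genes were kept by filterByExpr (minimum count 10, minimum total 15), scaled by TMM within the libraries of a fit and tested with edgeR 4.0.16 (quasi-likelihood F test) and limma 3.58.1 in R 4.3.3, without a replicate block, since the numbers did not pair the samples. The Benjamini-Hochberg adjustment ran over all genes of a test, with a threshold of 0.05. Standard errors were derived from F, as the fold change on the log2 scale over its square root. The differences of responses are interaction terms in fits of 24 libraries. CPM uses the TMM-scaled totals of the same fit, so that levels beside interactions differ slightly from those of the 12 libraries. The pipeline was tested on simulated counts with known changes. Alternatives were RLE factors, no filter, DESeq2 1.42.0, a replicate block, 1 fit of all 16 liver groups and each female B6 20-week library left out in turn; the 3 pairs of libraries left out together were chosen after seeing the data. Genes were named by rank of fold change among those called, 15 per direction for the diet and 6 per direction for interactions, provided that they had a regular gene name and that their mean log2 CPM was 1 or more; members of 34 gene lists could also be named, and not every gene so taken is named; a few are not reported here. Libraries, lists, motifs and genes were chosen with earlier results of these data known, so that counts over lists are descriptions and no list was tested. Promoter windows came from RefSeq (GRCm38.p6) and the files' build is GRCm39, so no other coordinates are given. Genes with near-identical copies and overlapping or antisense genes carry uncertain values. Tables and plots were made with Python 3.11.15, pandas 2.3.3, numpy 2.4.6, scipy 1.17.1 and matplotlib 3.10.9.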

Additional observations from a re-analysis of the deposited data

Results flagged for a closer look

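Among 97 named genes, each looked at in both diet groups of 6 libraries, there were 23 groups in which the highest or lowest library was separated from the rest by more than Dixon's 95% critical value for 6 values, which is 0.625 of the group's range; chance gives about 1 in 20 such groups, and the groups of related genes are not independent. High-fat library 3 stood apart from the other 5 libraries of its diet at 246.6 CPM in Acaa1b and 21.1 CPM in Col5a2. Chow library 1 stood apart from the other 5 libraries of its diet at 78.1 CPM in Adam11, 33.98 CPM in Meg3 and 14.1 CPM in Rian. High-fat library 2 stood apart from the other 5 libraries of its diet at 75.3 CPM in Csad, 602 CPM in Hmgcs1, 164 CPM in Msmo1 and 2.67 CPM in Usp2. High-fat library 1 stood apart from the other 5 libraries of its diet at 4.18 CPM in Cyp2c55, 718 CPM in Elovl6, 36.5 CPM in Fam198a, 4724 CPM in Fasn, 927 CPM in Pklr, 140.2 CPM in Pnpla3, 11.2 CPM in Pnpla5 and 125 CPM in Rgs16. Chow library 2 stood apart from the other 5 libraries of its diet at 1656 CPM in Hmgcs1 and 561 CPM in Msmo1. High-fat library 4 stood apart from the other 5 libraries of its diet at 11.1 CPM in Mt2 and 1.17 CPM in Rian. Chow library 4 stood apart from the other 5 libraries of its diet at 128 CPM in Nudt7 and 39.2 CPM in Onecut1.

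For 39 named genes and comparisons the test of the difference between responses passed an adjusted p of 0.05 in edgeR. On the log2 scale the female minus the male response in B6 was 5.26 for Hsd3b5, 5.14 for Cyp3a41b, 5.07 for Cyp3a41a, 4.78 for Cyp3a44, 4.06 for Cyp3a16, 2.11 for Slc39a4, 1.44 for Hyou1, 1.30 for Manf, 1.03 for Cyp3a11 and 0.97 for Nudt7. It was -2.04 for Stap1, -3.01 for Slc17a8, -3.20 for Crybg2 and -5.53 for Rgs16. The B6 minus the TH response in females was 3.47 for Ly6a, 2.27 for Kcnk10, 2.12 for Col5a2 and 1.64 for Slc39a2. It was -1.15 for Ugt1a9, -1.45 for Raet1e, -1.55 for Robo1, -2.65 for Meg3, -2.89 for Fam198a, -2.90 for Rian and -2.97 for Rad51b. The response at 20 weeks minus that at 5 weeks was 4.34 for Hsd3b5, 3.20 for Onecut1, 2.06 for Slco1a1, 1.52 for Gpcpd1, 1.49 for Lifr, 1.38 for Nudt7 and 0.75 for Fads2. It was -1.13 for Retsat, -1.43 for Robo1, -1.72 for Adamts7, -1.83 for Crybg2, -1.83 for Raet1e, -1.94 for Adam11 and -1.96 for Csad. Their levels and errors stand with the comparisons above, with the libraries on which some of these calls depend; what accounts for any of these differences was not tested.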

How the results depend on the processing

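The 884 diet calls became 872 with RLE factors, 821 without the count filter, 1762 with DESeq2 and 2999 in 1 fit of all liver groups, of which 867, 696, 882 and 856 genes were also called in the main test, none with the opposite sign. Leaving out 1 library gave 511 to 1232, and leaving out chow 3 and 4 or high-fat 3 and 6 gave 504 and 298. Differences between responses are given as the percentage of the genes of the main test: for the sexes (0.637%) DESeq2 gave 1.87%, all groups 1.84%, single libraries left out 0.431% to 1.77%, without chow 1 and 2 1.22% and without chow 3 and 4 0.393%. For the strains (0.64%) these were 2.37%, 2.63%, 0.392% to 1.39%, 1.80% and 0.223%, and 0.199% without high-fat 3 and 6. For the ages (0.493%) they were 1.76%, 1.47%, 0.282% to 1.35%, 1.18% and 0.192%, with 0.234% without high-fat 3 and 6 and 0.301% without the count filter. Each of 170 results for named genes had 20 alternatives, 3400 values in all. Of these, 3077 kept their side of the threshold, 259 lost the call and 63 gained it. Another 1 turned into a call of the opposite sign: Dbp, from -3.31 to 2.25 without chow 1 and 2, the 2 libraries with high Dbp. Values called in neither fit count as kept even where their sign turned, as for Col5a2, from 0.30 to -0.13 without high-fat 3. DESeq2 and the fit of all liver groups also called more list members, such as 8 and 9 rises in de novo lipogenesis (3 in the main test) and 17 and 20 in the macrophage list (10). The cause of these moves was not tested.

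Replicate numbers did not pair the samples: deviations of same-numbered chow and high-fat libraries correlated between -0.08 and 0.247 and 1 of 6 chow libraries matched its own number best. With the replicate block the diet gave 626 calls and the differences between sexes, strains and ages 0.481%, 0.477% and 0.210% of genes. The smallest effects are limited by 6 libraries a group and by totals near 11168764 counts, at which genes below the count filter were not tested.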
